A study of Homo sapiens with 6 samples.

Results

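The mRNA decapping factors are the 7 genes DCP1A, DCP1B, DCP2, DCPS, EDC3, EDC4 and DDX6, taken by symbol from the deposited gene table. Each had 1 row among the 18234 genes of the table, and all 7 were among the 8506 genes with enough signal to be tested. The series asked which RNAs are held by miR-146a in fibroblasts with oncogene-induced senescence. In miR-CLIP a microRNA mimic that carries psoralen and biotin is put into cells, RNA bound to the silencing protein AGO2 is immunoprecipitated, and RNA that the mimic has crosslinked is drawn out on streptavidin. There were 3 miR-CLIP libraries, whose labels name an AGO2 antibody, set against 3 Input libraries. Both groups were IMR90 fibroblasts, an established line from human lung, that expressed the oncogenic RAS allele RASV12 after retroviral infection and puromycin selection. The cells were seeded on day 10 after infection and transfected with the modified miR-146a mimic 24 hours later. No library with the empty vector or with an unmodified mimic was analysed here, so neither group lacks RASV12 or the mimic. The labels describe the AGO2 and streptavidin steps once for all samples and do not say how Input RNA was taken, nor whether replicates were separate cultures, so a p-value here reflects spread among libraries that may be technical.

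Decapping removes the cap from the front end of an mRNA and commits it to digestion from that end. A microRNA on AGO recruits deadenylases that shorten the poly(A) tail, and the RNA helicase DDX6 and the decapping complex then act on the silenced mRNA. DCP2 is the catalytic subunit, DCP1A and DCP1B are its activating subunits, EDC3 and EDC4 are enhancers that join the parts of the complex, and many of these proteins gather in P-bodies. DCPS stands at another place in decay: it is the scavenger enzyme that breaks down the capped fragment left after an mRNA has been digested from its tail end. The values below are amounts of each factor's own mRNA, not of the protein.

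The mimic's sequence and the members' matches to its seed are shown first, because a seed match is the textbook mark of a microRNA site. The mature human miR-146a-5p of RefSeq (GRCh38.p14, chr5:160485372-160485393, plus strand) is printed with its seed, bases 2 to 8, in capitals.

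hsa-miR-146a-5p: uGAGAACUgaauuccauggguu

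The annotated protein-coding transcripts of the 7 members (GENCODE release 29, GRCh38) were searched on the transcript strand for AGTTCTC, the 7mer-m8 site that pairs with the whole seed, and for GTTCTCA, the 7mer-A1 site that pairs with bases 2 to 7 and has an A after them. A transcript that held both as 1 run, AGTTCTCA, would have been counted as an 8mer, and 0 of the members' matches were of that kind. There were 5 matches, in DCP2, DCP1A and DCPS, and 0 in DCP1B, EDC3, EDC4 and DDX6. They are given with up to 30 bases of transcript, the match in capitals.

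DCP2, 7mer-m8 in the 3′ UTR, chr5:113019878-113019907, plus strand: atttttaagtgaAGTTCTCttaataagatt

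DCP2, 7mer-A1 in the 3′ UTR, chr5:113019241-113019270, plus strand: atgaaagtaaagGTTCTCAactgtgaatga

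DCP1A, 7mer-A1 in the 3′ UTR, chr3:53284001-53284030, minus strand: atagtgccctgtGTTCTCAagtctctaaaa

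DCP1A, 7mer-A1 in the coding sequence, chr3:53292486-53292515, minus strand: ccgttgagccctGTTCTCAgtcccactctg

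DCPS, 7mer-m8 in the coding sequence, chr11:126306676-126306705, plus strand: agctccagttgcAGTTCTCcaatgatatct

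DCP2 was thus the member with the 7mer-m8 match in a 3′ UTR. Its longest annotated 3′ UTR has 7486 bases, the 7mer-m8 match begins 6406 bases after the stop codon, and 2 of its 3 annotated coding transcripts hold it. Such a match was found in the longest 3′ UTR of 12.2% of the 6294 tested protein-coding genes, and in 46.2% of the 483 whose 3′ UTR has at least 5000 bases. For a 7mer-A1 match the shares were 14.6% and 49.3%. The 7mer-A1 match in the 3′ UTR of DCP1A lies in 1 of its 4 annotated coding transcripts. A match is a description of these letters and not a measured binding site.

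The rows held 9378463, 8088221 and 6847837 reads in libraries A, B and C of miR-CLIP, and between 9295325 and 12771968 reads in the Input libraries. The letters are those of the deposited columns, and the labels number the replicates without tying a number to a letter. Library miR-CLIP B stood apart from the other two of its group: across tested genes, which are not independent replicates, its log2 values had a Pearson r of 0.973 to 0.982 with the Input libraries, against 0.911 and 0.929 with miR-CLIP C and A. The tests below were therefore made with and without it. Since library B was singled out for its likeness to Input, leaving it out widens the differences between miR-CLIP and Input by construction, and the calls made without it rest on that choice. Of the fibroblast markers, 8 of 12 had a row, and their summed level ran from 113436 to 140349 normalised read counts in miR-CLIP and from 103740 to 161008 in Input libraries. Marker sums were 536 to 2254 in miR-CLIP and 1016 to 1362 in Input for 6 epithelial genes, 124 to 237 and 157 to 246 in that order for 4 endothelial genes, and at most 41.3 in any library for 4 blood cell genes. Their part in the results was not tested. Values are normalised read counts, that is, reads per gene divided by 1 scaling factor per library, and 1 read was worth between 0.612 and 1.25 of them.

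No decapping factor passed limma with 3 miR-CLIP against 3 Input libraries of equal weight. When limma weighted the same 6 libraries by their spread, 4 were called higher, where 6.25% of tested genes were. The weights moved the log2 fold changes of all 7 members toward those without library B. That of DCP2 went from 1.25 to 1.93, against 2.20 without B. The weighted calls are thus not separate from the choice to leave out B. The 4 called members were alike in direction in libraries A and C. DCP2 differed from the others in size there and in direction in library B. The mRNA of DCP2 was 1.84 and 2.56 log2 units above its Input mean in miR-CLIP libraries A and C. Those of DCP1A, EDC4 and EDC3 were 0.87 to 1.26 above theirs in these libraries. In library B DCP1A, EDC4 and EDC3 were at most 0.23 above their Input mean, and DCP2 was at -0.64. DDX6 and DCP1B lay on both sides of Input, and DCPS, the scavenger, was lower than in Input in libraries A and C. Both groups came from the same kind of cells, so a lower value in miR-CLIP describes the RNA in those libraries relative to Input. It does not give the number of cells with an RNA or its amount per cell, which bulk libraries cannot tell apart.

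**Figure D1:**
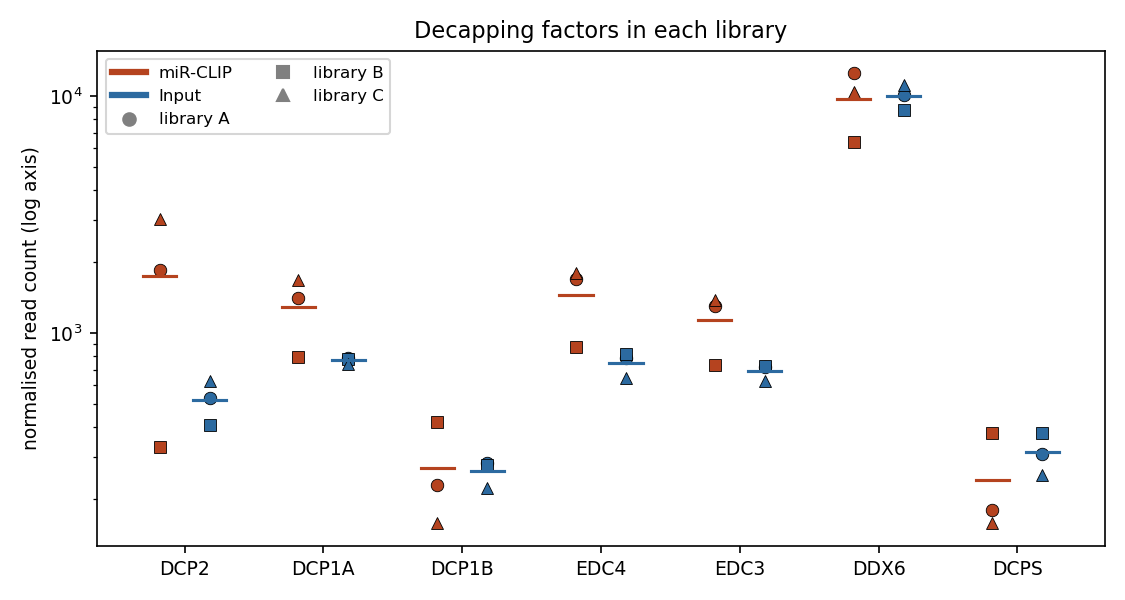
Normalised read count of the 7 decapping factors (log axis) in each library, with miR-CLIP to the left of Input for each gene, a marker shape per library letter, and a bar at the mean of 3 libraries. DCP2, DCP1A, EDC4 and EDC3 stand above Input in miR-CLIP libraries A and C, and the square of library B stands at or below the Input values for DCP2 and close to them for the other three.

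The catalytic subunit DCP2 (ENSG00000172795.15, chr5:112976702-113020970, plus strand) had the widest spread of the 7 on the log2 scale. In normalised read counts it had 1837, 330 and 3036 in libraries A, B and C of miR-CLIP, against 530, 409 and 624 in libraries A, B and C of Input. Libraries A and C were above every Input library and library B was below every one, so the groups overlapped. The means were 1734 ± 1356 in miR-CLIP and 521 ± 108 in Input (SD, n = 3 each), and the log2 fold change, the mean log2(value + 1) in miR-CLIP minus that in Input, was 1.25 ± 0.71 (SE), with a limma adjusted p of 0.611. The 95% interval of that fold change ran from -0.36 to 2.87.

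DCP1A (ENSG00000272886.5, chr3:53283428-53347610, minus strand), an activating subunit of DCP2, had 1400, 789 and 1679 in libraries A, B and C of miR-CLIP, against 780, 779 and 742 in libraries A, B and C of Input. All 3 miR-CLIP values lay above the Input values, library B only just. Its log2 fold change was 0.68 ± 0.32 (limma adjusted p 0.611).

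Its paralog DCP1B (ENSG00000151065.13, chr12:1946054-2004535, minus strand) had 227, 420 and 158 in libraries A, B and C of miR-CLIP, against 282, 277 and 222 in libraries A, B and C of Input. Here library B was the highest of all 6 and library C the lowest, the reverse of the order for DCP2. The log2 fold change was -0.07 ± 0.40 with a 95% interval from -0.98 to 0.84, and the limma adjusted p was 0.954. The sign turned with edgeR and DESeq2, which gave 0.01 and 0.03.

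EDC4 (ENSG00000038358.14, chr16:67873023-67884503, plus strand), the large scaffold of the decapping complex, had 1694, 872 and 1785 in libraries A, B and C of miR-CLIP, against 784, 816 and 643 in libraries A, B and C of Input. The groups did not overlap. Its mean was 1451 ± 503 in miR-CLIP and 747 ± 92.1 in Input (SD, n = 3 each), and its log2 fold change of 0.89 ± 0.33 had a 95% interval of 0.14 to 1.65. The limma adjusted p was 0.611, and EDC4 was the member with an unadjusted p under 0.05, at 0.0252.

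EDC3 (ENSG00000179151.11, chr15:74630558-74696292, minus strand), an enhancer that bridges DDX6 and the decapping enzyme, had 1296, 734 and 1380 in libraries A, B and C of miR-CLIP, against 715, 728 and 626 in libraries A, B and C of Input. The groups did not overlap, though library B lay close to the highest Input library. The log2 fold change was 0.67 ± 0.31 (limma adjusted p 0.611).

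DDX6 (ENSG00000110367.11, chr11:118747766-118791149, minus strand), the DEAD-box helicase that links the CCR4-NOT deadenylase to decapping, had 12447, 6408 and 10364 in libraries A, B and C of miR-CLIP, against 10116, 8685 and 11144 in libraries A, B and C of Input. Library A was the highest and library B the lowest of the 6, and library C fell among the Input libraries. The log2 fold change was -0.08 ± 0.32, with a 95% interval from -0.82 to 0.65 (limma adjusted p 0.929).

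DCPS (ENSG00000110063.8, chr11:126303752-126345754, plus strand) had 179, 379 and 158 in libraries A, B and C of miR-CLIP, against 307, 379 and 252 in libraries A, B and C of Input. Libraries A and C were below every Input library, and library B was level with the highest one. The log2 fold change was -0.49 ± 0.40 (limma adjusted p 0.641).

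Read against the background of the table, 0 of the 7 members passed limma at adjusted p 0.05 with all 6 libraries, as did 0% of the 8506 tested genes. edgeR called 0 genes, and DESeq2 called 2, ATP5L and HOMER3, which are named after their values were seen and are not decapping factors. With library weights, limma on the same 6 libraries called 4 members higher, DCP2, EDC4, DCP1A and EDC3 (adjusted p 0.00909, 0.0184, 0.0368 and 0.046), and 0 lower. In that fit 6.25% of tested genes were called higher, and 711 of the 8506 were called lower. Of all tested genes 548 had an unadjusted limma p under 0.05. At that level 1 member was higher, where 2.4% of tested genes were. The groups did not overlap, with miR-CLIP above, for 3 of 7 members (EDC4, EDC3 and DCP1A), against 5.64% of tested genes. In the authors' deposited table, DCP2, EDC4 and EDC3 had a p under 0.05 with a fold above 1, against 1.87% of the 18221 genes with a p there. The authors' deposited table gave folds of miR-CLIP over Input of 3.33, 1.94 and 1.65 for these, with an adjusted p of 1 for every member. The median log2 fold change of the 7 members was 0.67, with 4 above and 3 below 0, and that of all tested genes was -0.13.

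Without miR-CLIP library B, with 2 miR-CLIP against 3 Input libraries, 4 of the 7 members were called higher and 1 lower. In that comparison 12.6% of tested genes were called higher and 16.1% lower. The log2 fold change was 2.20 ± 0.27 for DCP2, 1.2 ± 0.18 for EDC4, 1.00 ± 0.17 for DCP1A and 0.96 ± 0.17 for EDC3, with limma adjusted p of 0.00161, 0.00272, 0.00491 and 0.00582. DCPS had -0.88 ± 0.25 (limma adjusted p 0.0356). The 2 members that did not pass were DCP1B, at -0.45 ± 0.26 (limma adjusted p 0.232), and DDX6, at 0.19 ± 0.20 (limma adjusted p 0.5). edgeR without library B called the same 5 members in the same directions, where 999 of the 8506 tested genes were called higher and 1345 lower. It used the same libraries and the same choice to leave out B, so it is not separate support.

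**Figure D2:**
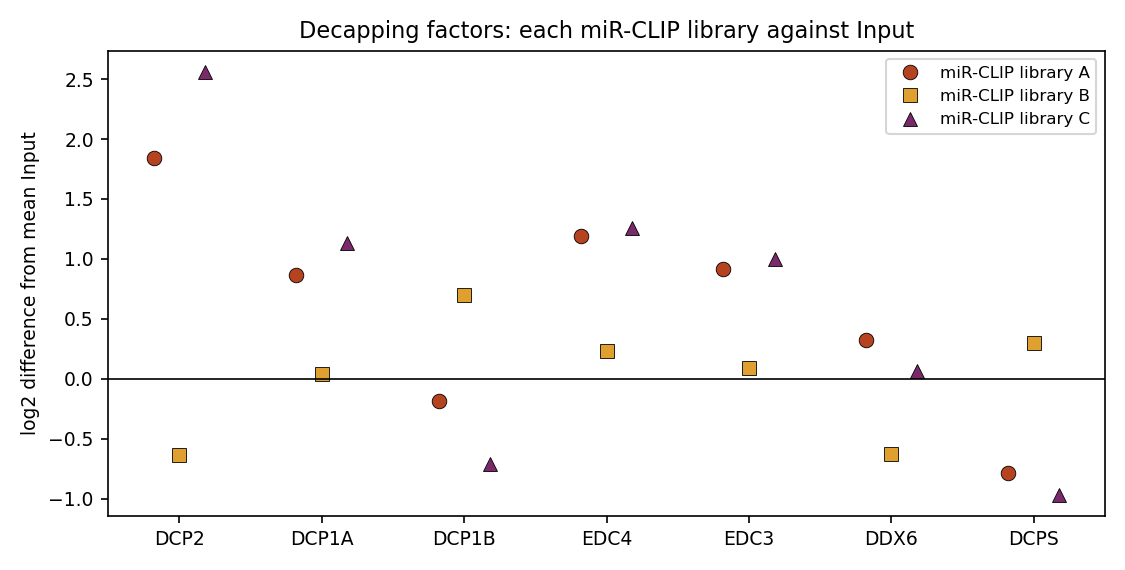
Log2 of the value plus 1 in each miR-CLIP library minus the mean of the 3 Input libraries, for the 7 decapping factors, with 0 marking the Input mean. Libraries A and C stand on the same side of 0 for every gene, at 1.84 and 2.56 for DCP2 and at 1.19 and 1.26 for EDC4, while library B stands at -0.64 for DCP2 and 0.23 for EDC4.

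DCP1A, EDC3 and EDC4 followed each other across the 6 libraries. When log2 profiles were centred on each gene's mean, EDC3 differed from EDC4 by a root mean square of 0.13 log2 units and DCP1A by 0.15, which ranked them 26th and 42nd nearest to EDC4 among 8505 other tested genes. The genes nearest to EDC4 were FAM131A, IFT140 and CUEDC1, at 0.07 to 0.08 log2 units. FAM131A had 838, 474 and 994 in libraries A, B and C of miR-CLIP, against 449, 448 and 334 in libraries A, B and C of Input. DCP2 had the same order of miR-CLIP libraries, C above A above B, with a larger swing. It lay 0.72 log2 units from EDC4, which ranked it 3484th, farther than DDX6 at 0.54. For DDX6, the nearest genes were CEP120, ERRFI1 and G3BP2, at 0.07 log2 units, and 0 of the other 6 decapping factors were among its nearest 100.

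Levels were compared between members per kilobase of annotated exon, since a longer mRNA yields more reads. This length joins the exons of all annotated transcripts of a gene. It was 3936 bases for DCPS, whose longest coding transcript has 1479, and 6173 for EDC4, whose longest has 4800. The order of members depends on the length used, and levels per single transcript were not computed. DDX6 was the most abundant by far, at 851 ± 268 normalised read counts per kilobase in miR-CLIP and 872 ± 108 in Input (SD, n = 3 each). EDC3, DCP1A and EDC4 formed a middle rank whose ranges overlapped in both groups. Within libraries, EDC4 was above DCP1A in 3 of 3 miR-CLIP libraries, and EDC3 was above DCP1A in 3 of 3 Input libraries. On the per-kilobase scale EDC3 had 223 ± 68.9 in miR-CLIP and 135 ± 10.8 in Input, DCP1A 210 ± 74.3 and 125 ± 3.59, and EDC4 235 ± 81.5 and 121 ± 14.9, in the same order of groups.

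Below them in Input, on this scale of joined exons, came DCPS, and below it DCP1B and the enzyme DCP2, whose ranges overlapped. Per kilobase, DCPS had 60.6 ± 31.1 in miR-CLIP and 79.5 ± 16.2 in Input, and DCP1B had 58.2 ± 29.5 in miR-CLIP and 56.5 ± 7.23 in Input. DCP2 had 185, 33.1 and 305 counts per kilobase in libraries A, B and C of miR-CLIP, against 53.3, 41.1 and 62.7 in libraries A, B and C of Input. In libraries A and C it thus stood above DCPS and DCP1B, which had at most 49.3 there. In Input DCP1B was above DCP2 in 2 of 3 libraries, and the ranges of DCPS and DCP1B did not overlap. Behind these levels lay between 126 reads, for DCP1B in miR-CLIP C, and 16520 reads, for DDX6 in Input A. The exact 95% Poisson interval of the lowest count, for counting error only, was 105 to 150 reads.

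Length moved with the difference between libraries. Over 8475 tested genes with an annotated exon length, length had a Spearman correlation of 0.32 with the log2 difference from Input for library A, -0.29 for library B and 0.30 for library C, each across genes of a single miR-CLIP library. The genes were divided by exon length into 4 classes with about the same number of genes. DCPS, with 3936 bases of exon, lay in the second-shortest class, DCP1B, EDC3, DCP1A and EDC4, with 4609 to 6173, in the second-longest, and DCP2 and DDX6, with 9951 and 11444, in the longest. The median log2 difference of that longest class was 0.43, -0.16 and 0.26 in libraries A, B and C of miR-CLIP, against 1.84, -0.64 and 2.56 for DCP2 and 0.33, -0.63 and 0.06 for DDX6.

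With the length trend of each library taken off, the log2 fold changes from all 6 libraries were 1.10 ± 0.66 for DCP2, 0.90 ± 0.33 for EDC4, 0.75 ± 0.33 for EDC3 and 0.69 ± 0.33 for DCP1A, and no member passed (limma adjusted p of at least 0.615). Without library B and with the trend taken off, these 4 members were called higher, at 1.89 ± 0.34, 1.21 ± 0.20, 1.08 ± 0.18 and 0.99 ± 0.20, in a comparison that called 9.57% of genes higher. DCPS then had -0.57 ± 0.25 and was no longer called (limma adjusted p 0.152). The sign for DDX6 turned to -0.19 ± 0.16 (limma adjusted p 0.442).

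**Figure D3:**
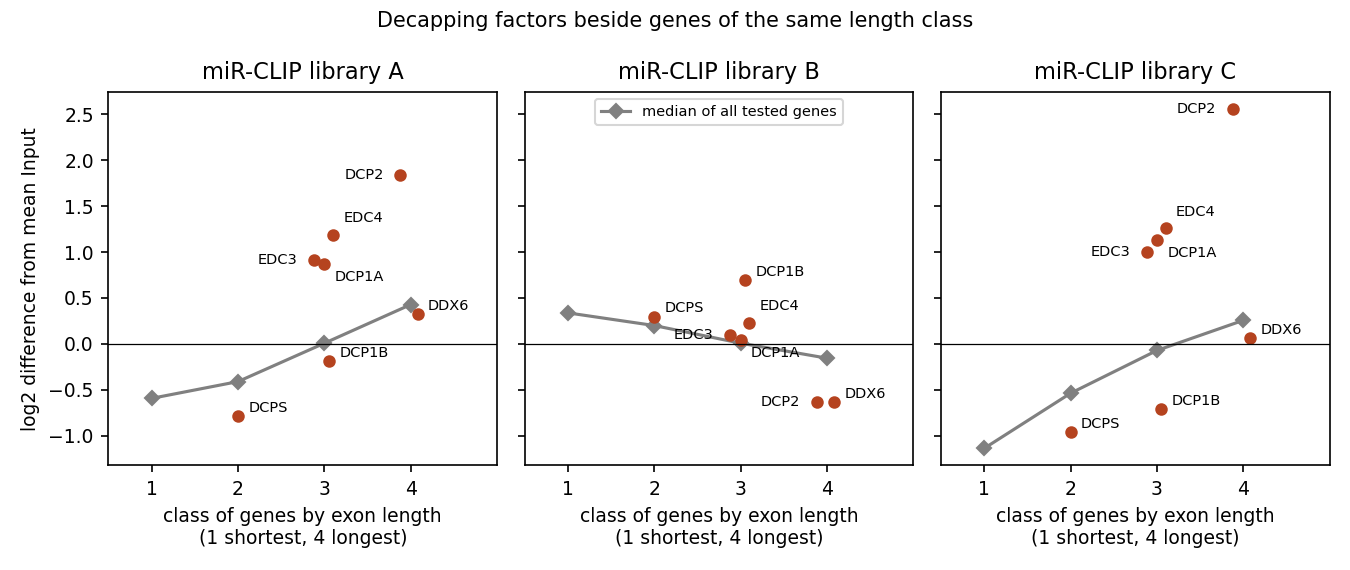
Log2 difference from the mean of Input for the 7 decapping factors (points) in libraries A, B and C of miR-CLIP, placed by the exon length class they fall in (shifted sideways within a class for legibility), with the median of all tested genes in each class (diamonds). DCP2, EDC4, EDC3 and DCP1A lie above the diamonds of their class in libraries A and C, and DDX6 lies below them.

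The members' fold changes are set beside their seed matches here, and a part of the matches in them was not tested. DCP2, with the 7mer-m8 and a 7mer-A1 match in its 3′ UTR, had the largest log2 fold change. DCP1A, with a 7mer-A1 match in its 3′ UTR and another in its coding sequence, was higher than Input in libraries A and C. EDC4 and EDC3, with none in any annotated coding transcript, were also higher in libraries A and C. DCP1B and DDX6, likewise without a match, had log2 differences from Input of -0.19 and 0.33 in library A. In library C they had -0.71 and 0.06. DCPS was lower in those libraries, and 1 of its 2 coding transcripts has a 7mer-m8 match, in the coding sequence. Over tested protein-coding genes, the median log2 fold change was 0.13 for the 771 with a 7mer-m8 match in the 3′ UTR and -0.10 for the 5523 without. Among genes with a 3′ UTR of at least 5000 bases it was 0.15 for the 223 with a match and 0.06 for the 260 without. Without library B the medians were 0.29 with and -0.19 without a match, and 0.36 and 0.25 in that order among the genes with a long 3′ UTR. The difference between the pairs of medians is a description of groups of genes and was not tested.

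Reads of neighbouring genes could enter some members, since the sources used here do not state whether strand was used in counting. EDC3 shares 701 exon bases with CLK3 on the other strand. CLK3 had 812, 1032 and 564 in libraries A, B and C of miR-CLIP, against 897, 978 and 925 in libraries A, B and C of Input. The part of CLK3 reads in the value of EDC3 was not tested. The lincRNA CTC-479C5.10, which shares 1311 exon bases with EDC4 on the same strand, had at most 5.16 in any library. The pseudogenes DDX6P1 and DDX6P2 had at most 4.13.

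Other genes of mRNA silencing and decay were read from lists, of which many members were not analysed here. Of 26 activators and partners of decapping, 13 had a row and all 13 were tested: 9 had a log2 fold change above 0, 4 below 0 and 0 passed, with a median of 0.17. Without library B, 3 were called higher and 1 lower, where 12.6% and 16.1% of all tested genes were. The 3 with the smallest p are given with their values, so that their distance from Input follows from the choice. The cap-binding repressor EIF4E2 had 3976, 1761 and 3221 in libraries A, B and C of miR-CLIP, against 1327, 1288 and 1283 in libraries A, B and C of Input (log2 fold change 1.12 ± 0.33, limma adjusted p 0.611). GIGYF1, a partner protein of EIF4E2, had 1701, 625 and 2072 in libraries A, B and C of miR-CLIP, against 525, 569 and 399 in libraries A, B and C of Input (1.40 ± 0.45, limma adjusted p 0.611). EIF4E, the cap-binding protein of translation initiation, had 239, 414 and 229 in libraries A, B and C of miR-CLIP, against 567, 417 and 579 in libraries A, B and C of Input (-0.86 ± 0.33, limma adjusted p 0.611). GIGYF2, the other partner of EIF4E2, had a log2 fold change of 0.17. Without library B, EIF4E2 had 1.46, GIGYF1 1.93 and EIF4E -1.14 (limma adjusted p 0.00136, 0.00124 and 0.00859).

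All 4 tested Argonaute genes had a log2 fold change above 0, with a median of 0.57, and 0 passed. The 3 with the smallest p were AGO2 at 0.89 ± 0.51, AGO4 at 0.86 ± 0.50 and AGO3 at 0.29 ± 0.36, and the sign for AGO3 turned once the length trend was taken off. AGO4 had 838, 204 and 686 in libraries A, B and C of miR-CLIP, against 265, 285 and 258 in libraries A, B and C of Input, so that library B again lay below Input. Without library B, these 3 were called higher, as 12.6% of all tested genes were, at 1.50, 1.49 and 0.69 (limma adjusted p 0.00489, 0.00201 and 0.0244). With the length trend also taken off, AGO4 kept its call, while AGO2 had 0.94 and AGO3 -0.02 and were not called (limma adjusted p 0.0948 and 0.96).

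The genes of deadenylase subunits and of their partners, which act before decapping, were split. BTG1 counts as above 0 at 0.0007. Of 13 tested, 5 lay above 0, 8 below and 0 passed, and without library B 3 were called higher and 6 lower, where 12.6% and 16.1% of all tested genes were. The antiproliferative deadenylase partner BTG2 had 2278, 631 and 4779 in libraries A, B and C of miR-CLIP, against 556, 374 and 453 in libraries A, B and C of Input. The catalytic subunit CNOT7 had 545, 1142 and 465 in libraries A, B and C of miR-CLIP, against 1521, 1354 and 1634 in libraries A, B and C of Input. Their log2 fold changes were 2.06 ± 0.63 and -1.18 ± 0.36, and that of CNOT2 was -0.73 ± 0.39 (limma adjusted p 0.611 each). BTG2, CNOT7 and CNOT2 are the 3 genes of this list with the smallest p, so that their distance from Input follows from the choice. Without library B all 3 were called, with limma adjusted p of 0.00129, 0.00132 and 0.0127.

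Of 14 tested exonuclease and exosome genes, which act at the tail end upstream of DCPS, 10 lay above 0, 4 below and 0 passed. Without library B, 1 was called higher and 3 lower, where 12.6% and 16.1% of all tested genes were. EXOSC3, EXOSC8 and EXOSC2, exosome subunits, are the 3 genes of this list with the smallest p, and their distance from Input follows from that choice. They had 0.82 ± 0.35, -1.14 ± 0.64 and -0.54 ± 0.34 (limma adjusted p 0.611 each). Without library B these 3 were called in the same directions, with limma adjusted p of 0.026, 0.00327 and 0.0314. With the length trend also taken off, EXOSC2 was not called (-0.57, limma adjusted p 0.119). Among other cap hydrolases 2 were tested: DXO, a cap quality-control enzyme, had -0.34 ± 0.57, and FHIT had at most 4.34 normalised read counts in any library. In the last list 3 proteins that bind AU-rich mRNA were tested, and 0 passed limma with or without library B. HNRNPD had -0.45 ± 0.40, ELAVL1 -0.05 ± 0.26 and KHSRP 0.01 ± 0.24, and the sign for KHSRP turned with TMM and edgeR. edgeR without library B called HNRNPD lower (-0.83, adjusted p 0.0494).

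**Figure D4:**
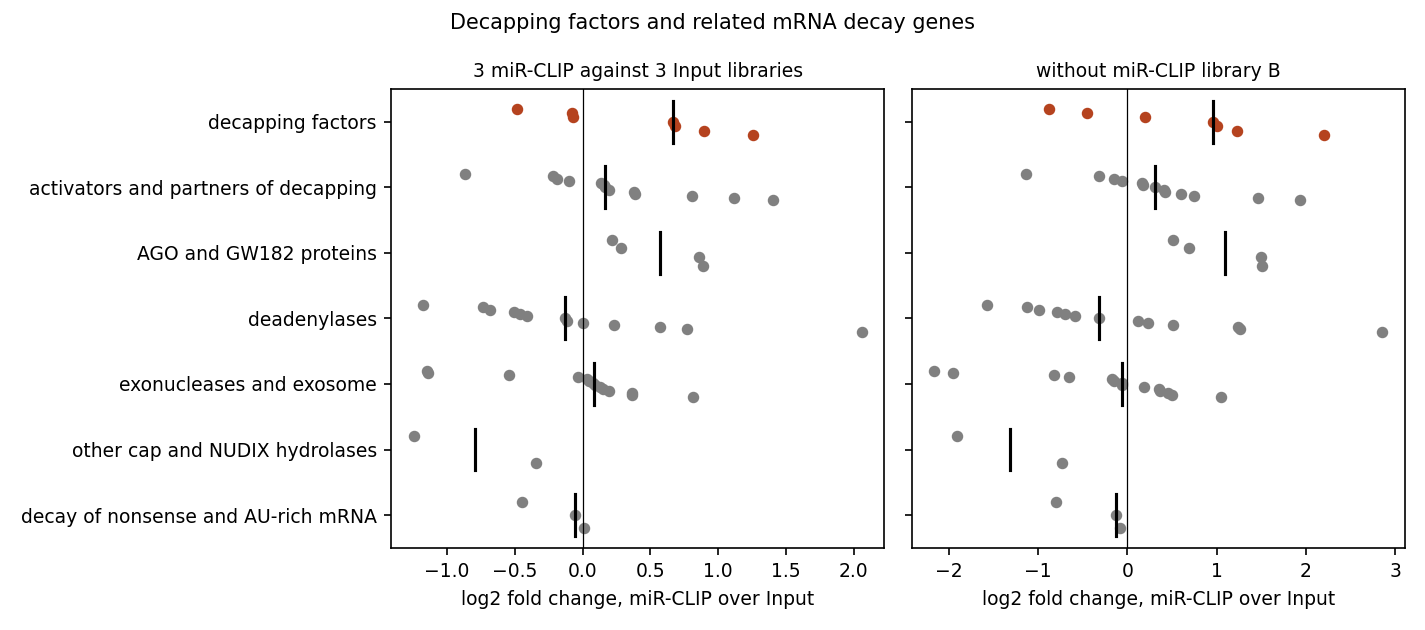
Log2 fold change, miR-CLIP over Input, of each tested gene in 7 groups (decapping factors on top, related decay genes below), from all 6 libraries on the left and without miR-CLIP library B on the right, with a bar at each group's median. The decapping factors have medians of 0.67 and 0.96 and range on both sides of 0, as the deadenylase subunits and partners do around -0.13 and -0.32.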

How the data were processed

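Libraries were made from rRNA-depleted RNA, per the labels' protocols. The deposited signal values, 1 per gene and library, are whole multiples of each column's smallest value above 0 within 1e-06 for 100% of values, the form of gene reads divided by a size factor by the authors. The step of miR-CLIP B, 0.993, lies close to 1. Trimmomatic 0.35, STAR 2.5.1b, DESeq2 1.22.2 and GRCh38 are named in the submitters' processing notes without roles. The sources used here do not say which program counted reads, nor its strand rule or annotation (not given). The authors' own comparison, as deposited, gives each gene a fold change on a linear scale (a ratio), together with p-values before and after adjustment.

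limma-trend (limma 3.58.1, R 4.3.3), a test for normalised values, was fitted to log2(value + 1) of the 8506 genes that reached 1 in 3 or more libraries, with group as the only term. Tests are two-sided, with Benjamini-Hochberg adjustment over all genes tested and a threshold of 0.05. The pseudocount shrinks fold changes of low genes. edgeR 4.0.16 and DESeq2 1.42.0 on recovered reads were alternatives. Exon length is the union of a gene's exons in GENCODE release 29, and the length trend is a lowess curve per library. The limma and edgeR fits were tested on simulated reads without a library set apart and without a length trend, so that check does not cover these features. The members and lists were chosen with earlier results of these data known. Every member is named, with the 3 genes of smallest p in each list and the 3 nearest to EDC4 and DDX6. CLK3, CTC-479C5.10 and the pseudogenes were added after values were seen. Members were matched to release 29 by gene ID without version, which found all 7, and their coordinates and lengths are those of that release. The ID version differed from the deposited one for DCPS, DDX6 and EDC3. For DCPS the location differed as well, so its length here may not be that of the gene model counted. Alternatives were another pseudocount, filter, scaling or tool, library weights, removal of the length trend, a replicate block and leaving out each library.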

Additional observations from a re-analysis of the deposited data

How the results depend on the processing

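The count of genes called at adjusted p 0.05, which was 0 with all 6 libraries in limma, was 2 with DESeq2, 1243 with library weights and 0 to 2442 when each library was left out in turn, the highest being without miR-CLIP B. It was 2344 with edgeR without miR-CLIP B and 1524 with the length trend also removed. Decapping members called numbered 4 with library weights and 0 to 5 over the libraries left out, again highest without miR-CLIP B, then 5 with edgeR and 4 with the length trend removed. Their median log2 fold change ran from 0.46 to 0.99 over all 18 alternatives, some chosen after the data were seen.

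Signs turned for fold changes near 0. DCP1B was 0.014 with edgeR, 0.033 with DESeq2, 0.047 with the length trend removed and -0.45 to 0.25 over the libraries left out. DDX6 was 0.18 with weights, -0.29 to 0.19 over the libraries left out and 0.10 with edgeR without miR-CLIP B. AGO3 was -0.082 with the length trend removed and -0.024 without miR-CLIP B as well. KHSRP was -0.017 with TMM, -0.012 with edgeR, -0.070 with weights, -0.17 with edgeR without miR-CLIP B and -0.085 to 0.073 over the libraries left out. Over those, DXO ran from -0.73 to 0.23 and ELAVL1 from -0.18 to 0.083. The median over all genes was -0.134 in limma, -0.034 with edgeR and -0.018 with DESeq2. The cause was not tested.

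With library letter as a replicate block, 0 genes and 0 members were called, and 709 genes had an unadjusted limma p under 0.05. Deviations from the group means of same-letter libraries correlated at 0.14, 0.11 and 0.086 for A, B and C, and each library correlated best with its own letter, a hint from the data and not the design. With 3 libraries a group, 1 of which stood apart, intervals were wide: that of DDX6 spans from -0.82 to 0.65.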

Other observations

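Ratios between members were formed within each library from counts per kilobase, so that they carry no scaling between libraries. They can still carry a library's length trend. In libraries A, B and C of miR-CLIP, the length class of DCPS had median log2 differences of -0.41, 0.20 and -0.54. That of DCP2 had 0.43, -0.16 and 0.26. The part of length in the ratios was not tested. The 3 pairs were chosen after the values were seen. DCP2 over DCP1A was 0.808, 0.257 and 1.11 in libraries A, B and C of miR-CLIP, against 0.419, 0.323 and 0.518 in libraries A, B and C of Input. DCP1A over its paralog DCP1B was 4.64, 1.41 and 8.02 in libraries A, B and C of miR-CLIP, against 2.08, 2.12 and 2.51 in libraries A, B and C of Input. DCPS over DCP2 was 0.246, 2.91 and 0.131 in libraries A, B and C of miR-CLIP, against 1.47, 2.34 and 1.02 in libraries A, B and C of Input. In each ratio, libraries A and C lay outside the Input range on one side and library B outside it on the other. The exact permutation test on the log2 ratios, two-sided with 3 libraries against 3, gave p of 0.5, 0.4 and 0.4, each 0.5 after Benjamini-Hochberg adjustment over the 3 ratios, and this design cannot give a p below 0.1.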
